A study of Arabidopsis thaliana with 21 samples.

Results

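IAA20 and GH3.3 are auxin-related genes of Arabidopsis thaliana whose transcripts were followed here through the first hours of red light and in the pif3 mutant. They were chosen by name, by taking every probe set that the platform annotation gives to one of them alone. They are 2 of 13286 genes so measured on the array, with 2 of the 22746 probe sets tested. IAA20 (AT2G46990) is measured by probe set 266753_at and GH3.3 (AT2G23170) by probe set 245076_at, so each gene rests on 1 probe set. Both passed without any filter on low values, since none was applied.

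The 21 arrays hold 3 samples, labelled as biological replicates, in each of 7 groups of whole etiolated Col-0 seedlings. All seedlings were grown without sucrose at 21 °C in darkness for 4 days after cold treatment and 3 h of white light to start germination. The pif3 mutant, whose allele the labels do not name, was sampled at that point (pif3_D0) and after 1 h more of darkness (pif3_D1). Wild-type seedlings were given continuous red light for 1 h (WT_R1) or 18 h (WT_R18) after the 4 days. Wild-type seedlings kept in darkness were sampled at 4 days (WT_D0), 1 h later (WT_D1) and 18 h later (WT_D18). PIF3, the gene mutated in pif3, encodes a transcription factor of the basic helix-loop-helix class to which light-activated phytochrome binds. No probe set named for PIF3 was analysed here, so the genotype rests on the labels.

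Auxin acts by bringing Aux/IAA repressors to the TIR1/AFB receptors, which leads to breakdown of the repressor and frees auxin response factors to act. IAA20 belongs to a small group of Aux/IAA proteins that lack the usual degradation motif, and such proteins are long-lived. GH3.3 encodes an enzyme of the GH3 family that joins auxin to amino acids and thereby lowers the amount of free auxin; the gene is itself switched on rapidly by auxin. Repressors and conjugating enzymes that auxin induces are the usual feedback arms of the pathway.

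Values are quantile-normalized array intensities, called units here, and some lie below 0 because the deposited values already did. Log2 changes are on the scale log2(intensity + 16) with values below 0 set to 0, so the changes of dim probe sets are understated. Changes with an adjusted p under 0.05 in limma (Benjamini-Hochberg over all probe sets) are named called, and every adjusted p below is from limma. Whole seedlings were used, so fewer cells of a type and less RNA per cell cannot be told apart.

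The 25S rRNA control signal and the summed green-tissue markers differed between groups. The control signal of 25S rRNA was 127.9 to 465.8 units in WT_R1, 2650 to 3423 units in WT_R18, 4289 to 5410 units in the 6 pif3 arrays and 365.2 to 4927 units in the 9 wild-type dark arrays. The 5 measured green-tissue markers of 12 listed summed to 23760 to 25750 units in WT_R18, 10010 to 10900 units in WT_R1, 10770 to 11490 units in pif3 and 7521 to 9412 units in wild-type darkness. The root hair marker EXPA7, 1 of 11 root entries measured, stayed between 12.35 and 74.24 units, and the stem cell marker CLV3, 1 of 6 apex entries measured, lay below 0 on every array. The part of these signals in the results below was not tested, apart from the fits with the 25S signal given as alternatives.

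After 18 h of red light the IAA20 signal was close to 0. IAA20 had 13.63, -5.174 and 4.955 units in the 3 WT_R18 arrays, against 259.8, 190.2 and 258.2 units in the 3 WT_D18 arrays. Every red light array lay far below every dark array. The share of all probe sets with a lower value than IAA20 was 25.9%, 6.36% and 16.8% in the WT_R18 arrays, which places the transcript among the dimmest signals there. No detection calls were used, and whether IAA20 was absent was not asked.

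IAA20 fell by 3.54 on the log2 scale at 18 h (SE 0.19, 95% interval -3.94 to -3.14, adjusted p = 1.5e-09). The group means were 4.472 ± 9.41 units in WT_R18 and 236.1 ± 39.7 units in WT_D18 (SD, n = 3 each). The size of this change rests on the offset, and it ran from -5.73 with an offset of 1 to -2.09 with an offset of 64, called each time. Red light at 18 h changed much of the transcriptome: 34.4% of all probe sets were called, 14.1% as higher and 20.3% as lower, and 28.4% had all red light arrays below all dark arrays. By absolute change IAA20 ranked 57th among all probe sets, and 0.246% changed more.

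GH3.3 also fell after 18 h of red light, and its signal stayed above that of IAA20 relative to the other probe sets. GH3.3 had 47.9, 95.21 and 84.67 units in the WT_R18 arrays, against 296.6, 521.3 and 354.2 units in the WT_D18 arrays. The groups did not overlap, and the dark arrays spread widely among themselves. GH3.3 fell by 2.15 on the log2 scale (SE 0.25, 95% interval -2.67 to -1.62, adjusted p = 4.9e-06). The group means were 75.93 ± 24.8 units in WT_R18 and 390.7 ± 117 units in WT_D18 (SD, n = 3 each). In the WT_R18 arrays 44%, 55.6% and 53.4% of all probe sets lay lower than GH3.3, against 78.5%, 87.3% and 81.6% in the WT_D18 arrays. Unlike IAA20, GH3.3 thus ended near the middle of each array's signals.

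Both genes were already lower after 1 h of red light. IAA20 had 168.7, 115.7 and 149.8 units in the WT_R1 arrays, against 296.1, 301 and 267.5 units in the WT_D1 arrays. GH3.3 had 92.99, 118.2 and 89.52 units in the WT_R1 arrays, against 228.6, 229.6 and 190.4 units in the WT_D1 arrays. For both genes every red light array lay below every dark array, as it did for 11.3% of all probe sets. IAA20 fell by 0.93 on the log2 scale (SE 0.19, 95% interval -1.33 to -0.53, adjusted p = 0.0059). GH3.3 fell by 1.0 on the log2 scale (SE 0.25, 95% interval -1.52 to -0.48, adjusted p = 0.024). At 1 h 4.94% of all probe sets were called, 2.78% as higher and 2.16% as lower, so both genes belonged to a small share of the array at this time.

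The 1 h call of GH3.3 was lost under more settings than that of IAA20. Without WT_D1 replicate 1 the adjusted p of GH3.3 was 0.089, without WT_D1 replicate 2 0.086, without WT_R1 replicate 1 0.082 and without WT_R1 replicate 3 0.088, with changes of -0.96 to -0.94. When the 25S signal was added as a covariate, GH3.3 changed by -0.86 (adjusted p = 0.29), whereas IAA20 changed by -1.09 (adjusted p = 0.039). The 3 WT_R1 arrays had the lowest 25S signals of the red light groups.

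**Figure D1:**
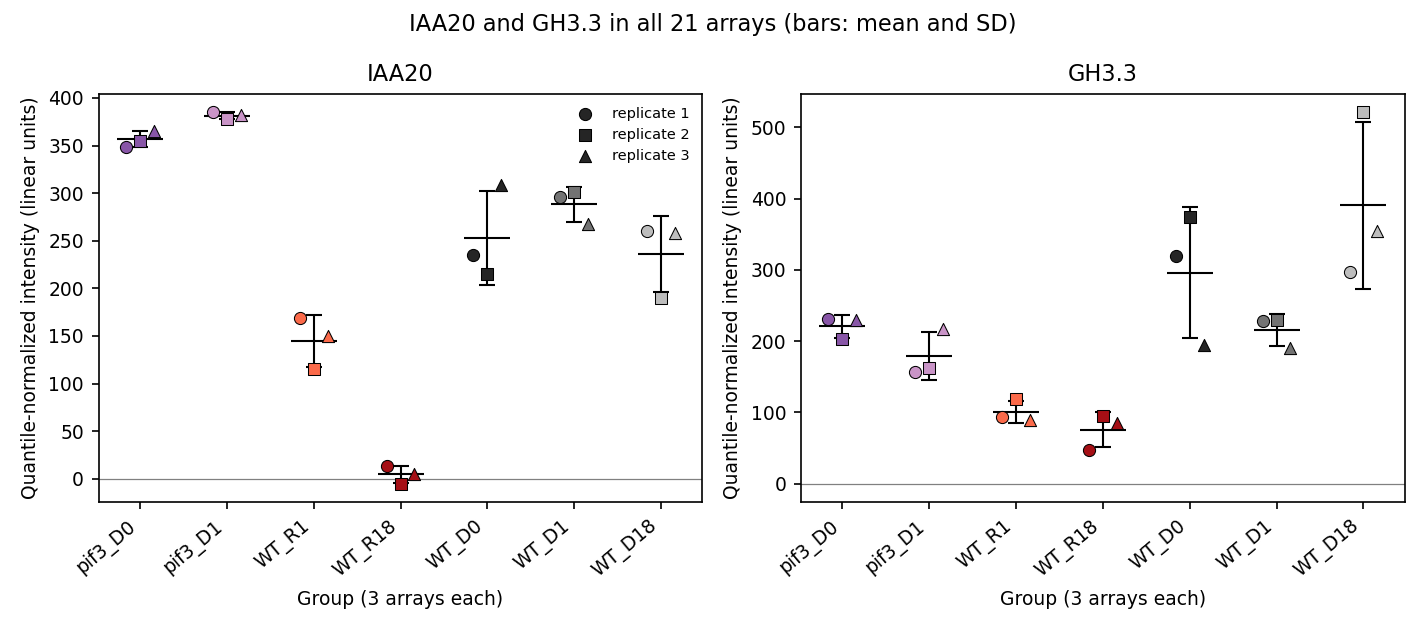
Normalized intensity of IAA20 and GH3.3 on each of the 21 arrays, by group. Points are arrays and bars are group means; IAA20 lies between -5.174 and 13.63 units in WT_R18, and GH3.3 spreads most in WT_D18, at 296.6 to 521.3 units.

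The genes differed in what happened between 1 h and 18 h. IAA20 went on falling under red light: WT_R18 was lower than WT_R1 by a log2 change of -2.89 (adjusted p = 3.6e-08), while WT_D18 differed from WT_D1 by -0.28 (adjusted p = 0.49). Of all probe sets 26.3% were called between the red light times and 0.0528% between these dark times. The red light change of IAA20 at 18 h minus that at 1 h was -2.61 (SE 0.26, adjusted p = 7.2e-06).

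For GH3.3 the same difference was -1.14 (SE 0.35, 95% interval -1.88 to -0.41, adjusted p = 0.031), and 18.8% of all probe sets were called for it. GH3.3 in WT_R18 and WT_R1 overlapped, with a log2 change of -0.37 (95% interval -0.89 to 0.15, adjusted p = 0.32). In darkness GH3.3 was higher in all 3 WT_D18 arrays than in all 3 WT_D1 arrays, with a log2 difference of 0.78 (95% interval 0.25 to 1.3, unadjusted p = 0.0064, adjusted p = 0.15). Neither of these parts of the GH3.3 difference was called on its own, and 13.1% of all probe sets had all WT_D18 arrays above all WT_D1 arrays. The call of the difference was lost without WT_D1 replicate 3 (adjusted p = 0.073), WT_D18 replicate 2 (0.083), WT_R1 replicate 2 (0.075) or WT_R18 replicate 1 (0.078).

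**Figure D2:**
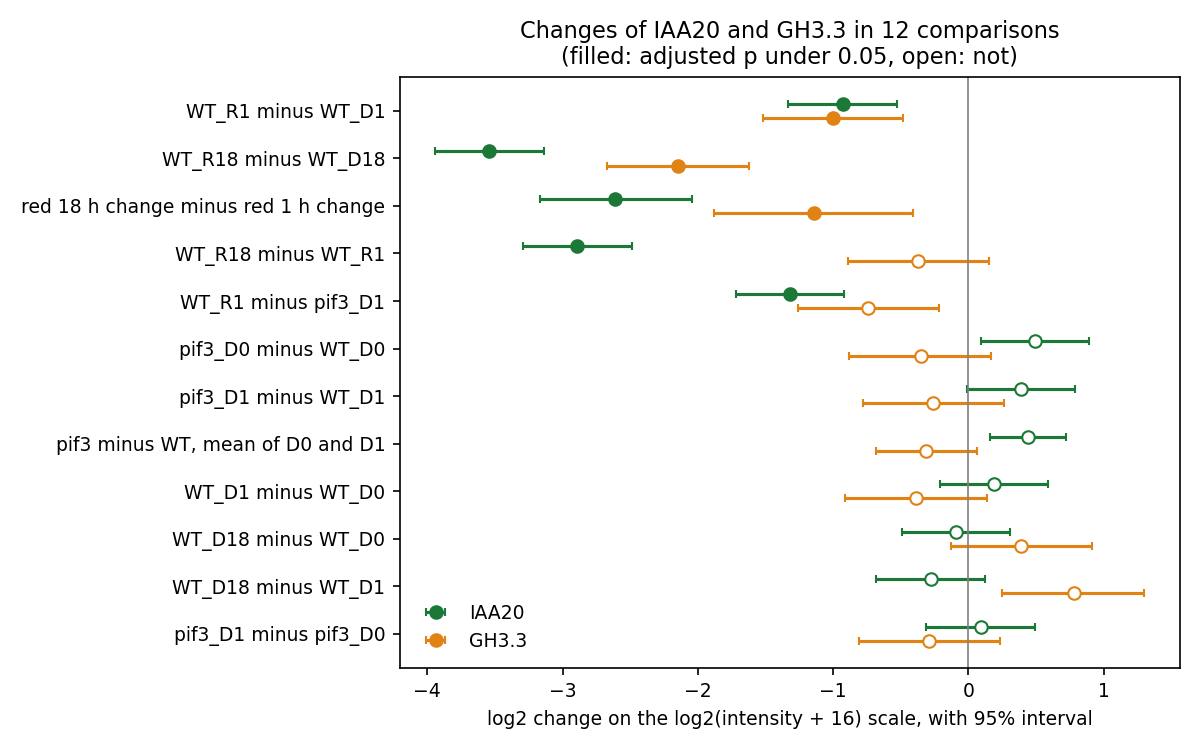
Log2 changes of IAA20 and GH3.3, with 95% intervals, in 12 comparisons. The 18 h red light changes, -3.54 for IAA20 and -2.15 for GH3.3, are the ones farthest below 0 against a dark control of the same time.

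In dark-grown pif3 seedlings IAA20 was higher on every array than in wild type, but the change did not pass the test in the fit of all 7 groups. IAA20 had 348.9, 355.3 and 365.7 units in pif3_D0, against 235.2, 214.8 and 308.2 units in WT_D0. IAA20 had 384.9, 377.6 and 381.9 units in pif3_D1, against 296.1, 301 and 267.5 units in WT_D1. All 6 pif3 arrays lay above all 6 wild-type arrays, which 0.875% of all probe sets showed, and the pif3 arrays lay close together.

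The IAA20 means over both times were 369 ± 14.8 units in pif3 and 270.5 ± 38.4 units in wild-type darkness (SD, n = 6 each). The mean log2 change was 0.44 (SE 0.13, 95% interval 0.16 to 0.72), with an unadjusted p of 0.0048 and an adjusted p of 0.11. An unadjusted p under 0.05 was reached by 15% of all probe sets and a call by 1.78%. An exact permutation test of this value alone exchanged genotypes within each time. With all pif3 arrays above all wild-type arrays, it had to give its smallest two-sided p, 0.005 for 400 arrangements. It therefore adds nothing to the separation of the arrays. At D0 the change was 0.49 (adjusted p = 0.29, with 0.295% of all probe sets called) and at D1 it was 0.39 (adjusted p = 0.68, with 0.0396% called), and the 2 changes differed by -0.10 (95% interval -0.66 to 0.46). The call was gained in 2 other fits. With an offset of 64 the change was 0.38 (adjusted p = 0.029), and in a fit of those 4 groups alone it was 0.44 (SE 0.08, adjusted p = 0.042). The fit of all 7 groups uses a spread shared by all of them. The log2 SD of IAA20 was 0.45 in WT_R18, 0.26 in WT_D0, 0.09 in WT_D1, 0.03 in pif3_D0 and 0.01 in pif3_D1.

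GH3.3 did not differ detectably between pif3 and wild type in darkness. GH3.3 had 230.4, 202.3 and 229.9 units in pif3_D0, against 319.7, 373.8 and 195.1 units in WT_D0. GH3.3 had 156.5, 162.9 and 217.3 units in pif3_D1, against 228.6, 229.6 and 190.4 units in WT_D1. The groups overlapped at both times, and 1 wild-type array at each time lay below a pif3 array. The mean log2 change was -0.31 (95% interval -0.68 to 0.06, adjusted p = 0.45), and the exact permutation test gave a two-sided p of 0.07. The interval does not include an increase of the size estimated for IAA20. The summed green-tissue markers were also higher in pif3 than in wild-type darkness at these times, at 10770 to 11490 units against 7527 to 9412 units. Of these 5 markers 3 were called higher for the mean over both times, where 1.13% of all probe sets were. RCA changed by 0.25 and LHCB4.3 by -0.10, neither called. The part of these markers in the IAA20 values was not tested.

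WT_R1 and dark pif3_D1 differ in both light and genotype, and for both genes the red light arrays were the lower ones. IAA20 was lower in WT_R1 than in pif3_D1 by a log2 change of -1.32 (SE 0.19, adjusted p = 0.00025), called where 6.11% of all probe sets were. GH3.3 was lower on every WT_R1 array too, as 12.2% of all probe sets were, with a log2 change of -0.74 (95% interval -1.26 to -0.22), but the adjusted p was 0.10. The red light change at 1 h and the pif3 change at D1 share the 3 WT_D1 arrays. For IAA20 they were -0.93 and 0.39, and for GH3.3 they were -1.0 and -0.26.

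The order of the 7 groups was therefore not the same for the 2 genes. IAA20 was highest in pif3_D1, followed by pif3_D0, WT_D1, WT_D0, WT_D18, WT_R1 and WT_R18. The first 5 groups in that order did not differ from their neighbours beyond the test (adjusted p = 0.91, 0.47, 0.86 and 0.91). WT_R1 was lower than WT_D18 (log2 change -0.65, adjusted p = 0.039, with 9.85% of all probe sets called), and WT_R18 was lower than WT_R1. In all, 12 of 21 pairs of groups were called for IAA20.

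GH3.3 was highest in WT_D18, followed by WT_D0, pif3_D0, WT_D1, pif3_D1, WT_R1 and WT_R18, and no neighbouring groups in that order were called. Its neighbour with the smallest adjusted p was WT_R1 against pif3_D1, at 0.10. In all, 10 of 21 pairs were called for GH3.3. They included pif3_D1 against WT_D18, where GH3.3 was lower in the mutant by a log2 change of -1.04 (adjusted p = 0.023), although genotype and time in darkness both differ there and 7.43% of all probe sets were called. IAA20 was higher in pif3_D1 than in WT_D18 (log2 change 0.67, adjusted p = 0.043), so the genes moved in opposite directions between these groups.

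**Figure D3:**
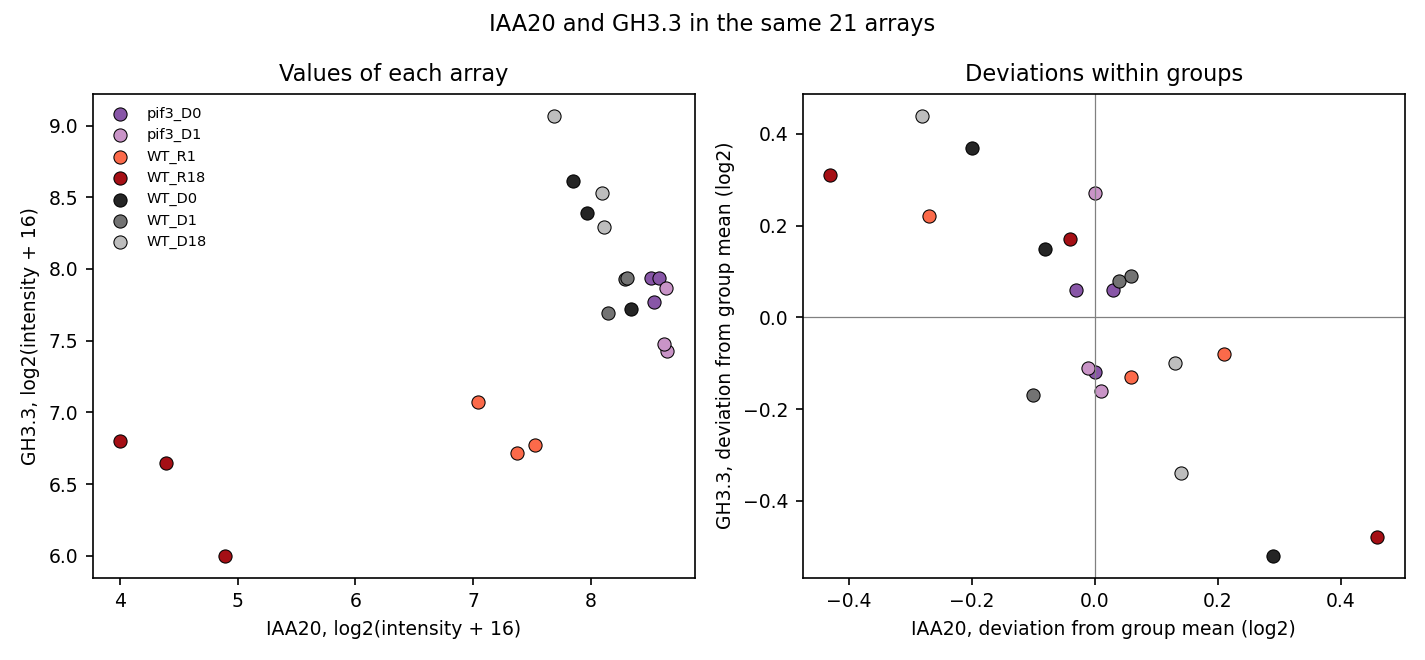
IAA20 against GH3.3 on each array, both as log2(intensity + 16), by group. The WT_R18 arrays lie lowest for IAA20, and for GH3.3 they overlap the WT_R1 arrays at the low end. The pif3 arrays lie highest for IAA20 but in the middle for GH3.3. A second panel shows the deviations from the group means.

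Across the 21 arrays the log2 values of IAA20 and GH3.3 correlated at r = 0.64 (Spearman rho = 0.33), and across the 7 group means at r = 0.73 (Spearman rho = 0.32). These arrays share the groups and the normalization, so the value is a description. Among 5712 genes with a highest group mean of at least 100 units, GH3.3 ranked only 1395th in likeness to IAA20.

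The 5 genes most like IAA20 over the 21 arrays were AT2G34020, SPT, AT5G02540, AT4G11610 and AT5G44440, all at r = 0.98. SPT, a basic helix-loop-helix factor, averaged 113.9 units in WT_R18 and 332.2 units in WT_D18, a log2 change of -1.42. AT2G34020 was the closest, and it too ended near 0 in WT_R18, at 14.63 units against 352.4 units in WT_D18 (log2 change -3.65). Their pif3 changes ran from 0.05 for AT4G11610 to 0.36 for AT5G44440. Of the auxin list genes with a highest group mean of at least 100 units, HAT2 was most like IAA20, at r = 0.91 and rank 149. Dimmer list genes, IAA30 and IAA34 among them, were not compared.

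The 5 genes most like GH3.3 were AT3G19390 (r = 0.93), MGL (0.92), AT3G59350 (0.92), AT5G11090 (0.91) and AT2G16660 (0.91). MGL, which encodes methionine gamma-lyase, averaged 1078 units in WT_R18 and 3062 units in WT_D18, a log2 change of -1.50. These genes had smaller red light changes than GH3.3 itself, from -1.50 for MGL to -0.59 for AT2G16660 at 18 h. Of the auxin list genes with a highest group mean of at least 100 units, WES1 (GH3.5) was most like GH3.3. It is another GH3 conjugating enzyme, at r = 0.88 and rank 20.

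**Figure D4:**
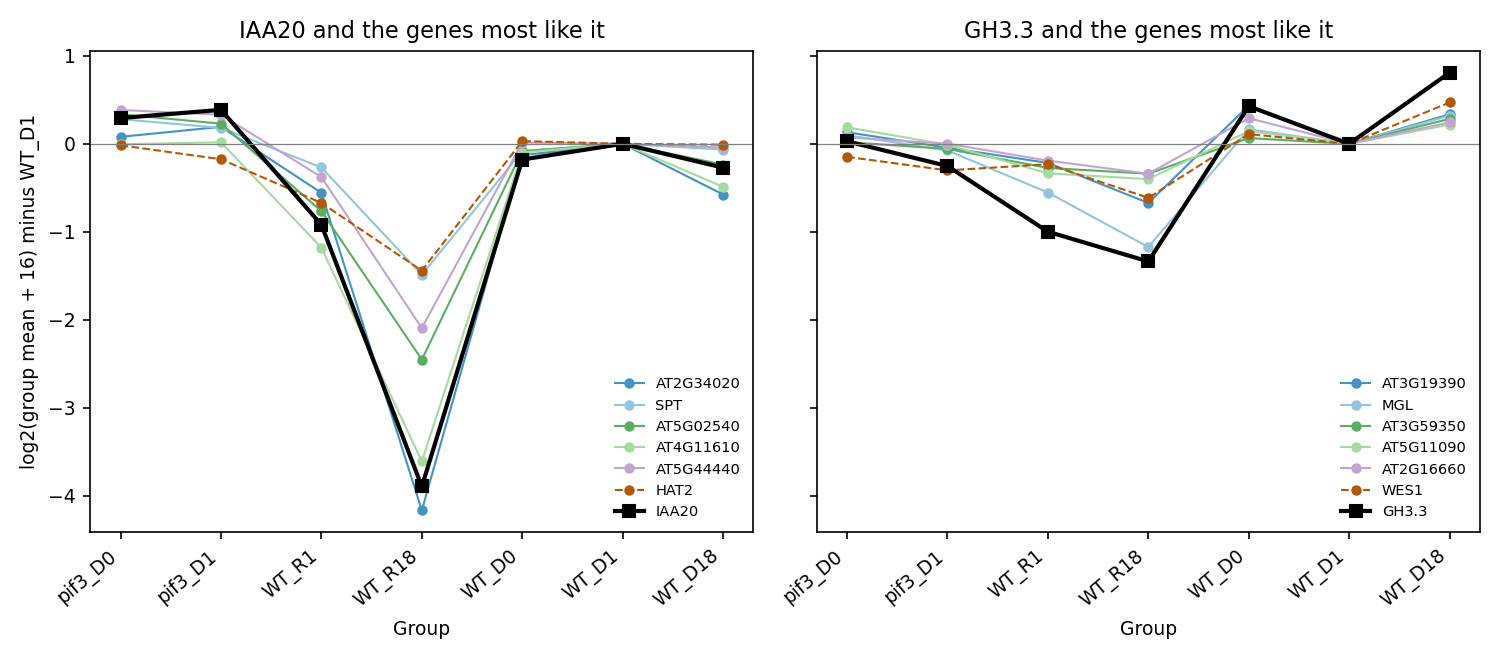
Group means of the genes most like IAA20 and most like GH3.3 over the 7 groups, beside the genes themselves. The means are drawn on the log2 scale, with the offset added, as differences from the WT_D1 value of each gene. AT2G34020 and IAA20 both end far below their WT_D1 level in WT_R18, where their mean intensities were 14.63 and 4.472 units.

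Other auxin genes were taken from lists of 168 entries, of which 29 besides IAA20 and GH3.3 were measured by a named probe set. No auxin response factor, receptor or SAUR entry was among them, so the lists speak mainly for repressors and conjugating enzymes. At 1 h of red light 1 of the 29 was higher and 4 were lower, or 17.2% called, against 4.94% of all probe sets, with a median log2 change of 0 against -0.02. At 18 h 4 were higher and 11 lower, or 51.7% called, against 34.4% of all probe sets, with a median of -0.17 against -0.04. In pif3 0 of the 29 were called in limma for the mean over both times, against 1.78% of all probe sets. An unadjusted limma p under 0.05 was reached by 8 of the 29, against 15% of all probe sets.

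Of 29 Aux/IAA entries 7 were measured, IAA20 included. At 1 h 2 of the 7 were lower, IAA20 and IAA29, where 2.16% of all probe sets were. At 18 h 4 were lower and 0 higher in limma, with a median of -0.63, where 20.3% of all probe sets were lower and 14.1% higher. Of the 7, 1 was higher at an unadjusted limma p under 0.05. That gene, IAA33, was dim, with group means of 12.4 units in WT_R18 and 5.236 units in WT_D18. All probe sets were not counted at that threshold, so the count cannot be set against them. IAA29 fell by 2.09 at 1 h (adjusted p = 4.7e-08) and by 1.91 at 18 h, so its change was no larger at 18 h than at 1 h. IAA29 averaged 30.51 ± 2.03 units in WT_R1 and 182 ± 18.9 units in WT_D1 (SD, n = 3 each). IAA30, which like IAA20 lacks the usual degradation motif, fell by 0.63 at 18 h (adjusted p = 0.0017) from a dim signal. IAA34 fell by 0.86 (adjusted p = 3e-04). IAA31 had a log2 change of 0.19, IAA18 of 0.11 and IAA33 of 0.41 at 18 h, none called.

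Of 19 GH3 entries 11 were measured, GH3.3 included. At 1 h 1 of the 11 was called, GH3.3 itself, where 4.94% of all probe sets were called, 2.16% as lower. At 18 h 3 were lower and 2 higher, with a median of -0.15, and these 5 of 11 lie near the 34.4% of all probe sets called (20.3% lower, 14.1% higher). WES1 fell by 1.09 (adjusted p = 6.6e-05), at 1084 ± 212 units in WT_R18 against 2316 ± 405 units in WT_D18 (SD, n = 3 each). GH3.9 rose by 1.24 (adjusted p = 2.2e-05), at 58.97 ± 6.31 units in WT_R18 against 15.94 ± 4.49 units in WT_D18 (SD, n = 3 each). GH3.17, which joins auxin to glutamate, changed by -0.11 and GH3.1 by -0.32, neither called. Of the measured entries known only by locus, AT5G13350 rose by 0.86 (adjusted p = 0.025) and AT5G13380 fell by 0.48 (adjusted p = 0.021), with group means between 7.155 and 25.86 units in WT_R18 and WT_D18. AT5G13350 lost its call without any one of the WT_R18 arrays or of WT_D18 replicates 1 and 3 (adjusted p up to 0.078), and AT5G13380 without WT_D18 replicate 1 (0.12), WT_R18 replicate 1 (0.075) or WT_R18 replicate 3 (0.063). AT5G51470, AT1G23160, AT1G48670 and AT1G48660 had log2 changes between -0.23 and 0.43 and were not called.

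Among auxin-responsive genes of other families, HAT2, which encodes a homeodomain-leucine zipper protein, fell by 0.67 at 1 h (adjusted p = 0.00026) and by 1.44 at 18 h (adjusted p = 1.3e-08). XTH19, a cell wall xyloglucan enzyme, changed by -0.15 at 1 h and fell by 1.44 at 18 h (adjusted p = 6.8e-05). LBD16, a regulator of lateral root formation, fell by 0.33 at 18 h (adjusted p = 0.017), a call lost without WT_D18 replicate 2 (0.088), WT_R18 replicate 1 (0.056) or WT_R18 replicate 3 (0.095). HAT2 had called decreases at both times, as IAA20, GH3.3, IAA29 and WAG2 did.

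The remaining auxin lists held few measured genes. WAG2, a protein kinase acting on auxin transport, fell by 1.04 at 1 h (adjusted p = 0.015) and by 1.21 at 18 h (adjusted p = 0.00084). Its 1 h call was lost without WT_D1 replicate 2 (adjusted p = 0.056), WT_R1 replicate 2 or WT_R1 replicate 3 (0.064 each). UGT74D1, a glucosyltransferase able to act on auxin, rose by 0.59 at 1 h (adjusted p = 0.0023) and by 0.98 at 18 h (adjusted p = 2.4e-06). AT1G14120 fell by 0.47 at 1 h (adjusted p = 0.04) and rose by 0.42 at 18 h (adjusted p = 0.015). Its 1 h call was lost without WT_D1 replicate 1 (adjusted p = 0.17), WT_D1 replicate 3 (0.14) or any one of the WT_R1 arrays (0.083 to 0.13), and its 18 h call without WT_D18 replicate 3 (0.062) or WT_R18 replicate 2 (0.084). AT1G14130 fell by 0.26 at 18 h (adjusted p = 0.016), with an adjusted p of 0.064 without WT_D18 replicate 1 and 0.05 without WT_D18 replicate 2. YUC4, an auxin synthesis enzyme, fell by 0.54 at 18 h (adjusted p = 0.044), with group means of -2.755 units in WT_R18 and 8.277 units in WT_D18, and the call was lost without any one of these 6 arrays (adjusted p = 0.059 to 0.12).

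**Figure D5:**
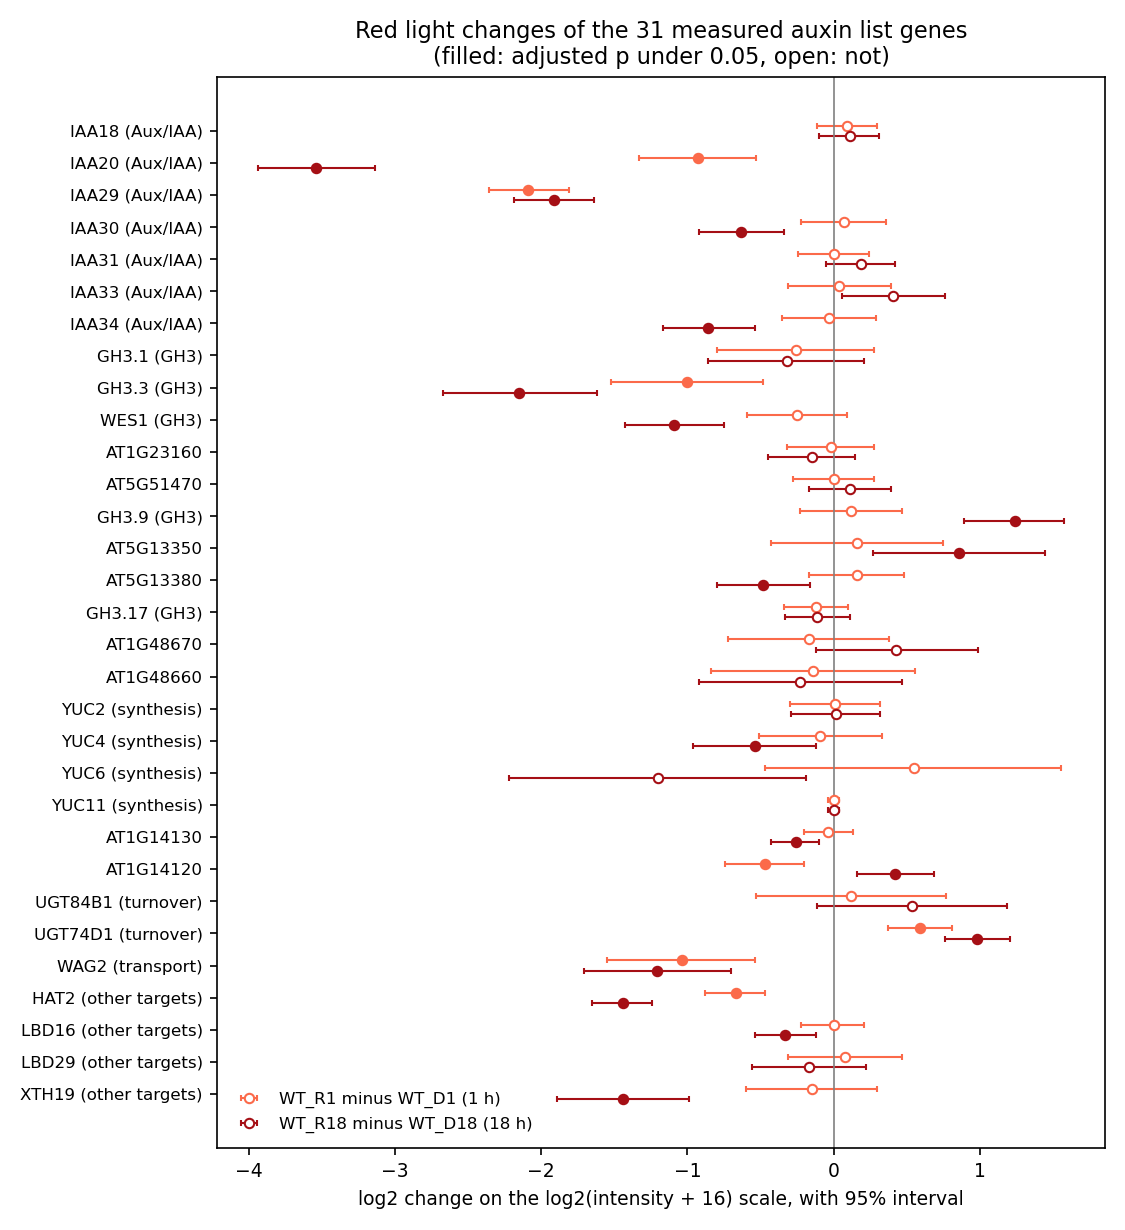
Log2 changes after 1 h and 18 h of red light for the 31 measured genes of the auxin lists, IAA20 and GH3.3 included. Filled points were called; IAA20 has the lowest 18 h value, at -3.54, and GH3.9 the highest, at 1.24.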

How the data were processed

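RNA of whole seedlings was labelled with biotin and hybridised to Affymetrix arrays with 1 colour. The authors deposited linear intensities, with 1 value for each probe set on each array. How probes were summarised or scaled, and which genome build was used, is not given in the sources used here. Of each array's deposited intensities, 9.78% to 12.1% lay below 0, and array medians ran from 36.13 to 102.9, so the arrays had no common scale. The number of arrays limits the precision. Arrays within a group correlated at r of 0.977 to 0.992, and 0 pairs held identical values. The labels call the replicates biological but do not say whether they were separate sowings; p-values measure the spread between these samples.

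All 22810 probe sets were quantile normalized on the linear scale, and 64 controls were then set aside. Values below 0 were set to 0, 16 was added and log2 was taken. limma 3.58.1 in R 4.3.3 (lmFit and eBayes) fitted 7 group means over 21 arrays, with Benjamini-Hochberg adjustment over 22746 probe sets and two-sided tests. Group means and SDs are of normalized intensities before the floor. The steps were also run on simulated arrays with independent noise for each probe set, and changes were added only to brighter probe sets. Variation shared by probe sets within a group and changes of dim signals were not simulated, so that run does not test them.

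Probe sets were named through the platform annotation: 13513 had 1 gene, 503 several, and 8730 tested ones were not listed. A gene table of assembly TAIR10.1 supplied symbols. A gene with several probe sets was represented by its brightest. The genes, lists and tests were chosen with earlier results of these data known. Genes named were IAA20 and GH3.3, all measured Aux/IAA and GH3 entries, up to 4 called genes of each other auxin list with the largest changes, and, for each of IAA20 and GH3.3, the 5 genes with the highest Pearson r over 21 arrays and the auxin gene most alike. Likeness was taken only among genes with a highest group mean of at least 100 units, also for the auxin genes. Alternatives changed the offset, scaling, filter, covariates, fit or arrays used. Vascular marker entries had no named probe set and were not analysed here.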

Additional observations from a re-analysis of the deposited data

Results flagged for a closer look

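The red light changes at 18 h and at 1 h were compared directly, as a difference of differences in the limma fit, and 10 of the 31 measured auxin genes passed that test, as did 18.8% of all probe sets. The difference, 18 h minus 1 h on the log2 scale, was -2.61 for IAA20 (adjusted p = 7.2e-06) and -1.14 for GH3.3 (adjusted p = 0.031). Among Aux/IAA genes it was -0.83 for IAA34 (adjusted p = 0.011) and -0.70 for IAA30 (adjusted p = 0.017). Among GH3 entries it was -0.84 for WES1 (adjusted p = 0.016), -0.64 for AT5G13380 (adjusted p = 0.049) and 1.12 for GH3.9 (adjusted p = 0.0028). The call of AT5G13380 was lost in 9 of 12 fits that left out 1 array (adjusted p = 0.055 to 0.12), with WT_R18 replicate 2 and WT_D18 replicates 2 and 3 the arrays whose absence kept it. It was -1.29 for XTH19 (adjusted p = 0.0066) and -0.77 for HAT2 (adjusted p = 8e-04). AT1G14120 had a difference of 0.89 (adjusted p = 0.0021), with changes of 0.42 at 18 h and -0.47 at 1 h, but its 1 h call was lost in 5 of 6 fits that left out 1 array (adjusted p up to 0.17). IAA29, WAG2 and UGT74D1, each called at both times, did not pass, with differences of 0.17 (adjusted p = 0.59), -0.17 (0.82) and 0.40 (0.08). No search for single outlying arrays was made, since each group has 3.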

How the results depend on the processing

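Of 312 results for IAA20 and GH3.3 under other settings, 299 kept their direction and their side of the threshold and 11 changed sides. Without scaling 2 uncalled values changed sign, IAA20 in the difference of the pif3 changes (0.21) and GH3.3 in pif3_D1 against pif3_D0 (0.20). The 18 h decreases were called under every setting tried, IAA20 at -5.73 to -2.09 and GH3.3 at -2.37 to -1.69. The IAA20 decrease at 1 h lost its call with an offset of 1 (-1.0, adjusted p = 0.51) and without scaling between arrays (-0.99, 0.35). With single arrays left out it was kept (-1.04 to -0.80). The GH3.3 decrease at 1 h lost its call without scaling (-1.07, adjusted p = 0.61), with the 25S covariate (-0.86, 0.29) and without the 3 dark wild-type arrays of low 25S signal (-0.96, 0.095), a setting chosen after seeing the data. With single arrays left out it ran from -1.11 to -0.94. The GH3.3 difference between 18 h and 1 h lost its call without scaling (-1.02, 0.61) and with the 25S covariate (-1.33, 0.10), and ran from -1.32 to -0.90 with single arrays left out. The IAA20 change in pif3 passed with an offset of 64 (0.38, 0.029) and in a fit of its own groups (0.44, 0.042). WT_R1 against dark pif3 was no longer called for IAA20 with an offset of 1 (-1.41, 0.25) and became called for GH3.3 with dim probe sets left out (-0.74, 0.043). The causes were not tested.

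Of the Aux/IAA genes, 1 was lower at 1 h with an offset of 1 or without scaling, 2 were lower at 18 h without scaling or with dim probe sets left out, and 1 was higher at 18 h without scaling, with 75th percentile scaling or with the GAPDH covariate. Of the GH3 genes, 0 were lower at 1 h without scaling, with the 25S covariate or without the 3 low 25S arrays. At 18 h 1 was higher with an offset of 1 or without those 3 arrays, and 0 with dim probe sets left out. Pairs of groups called for IAA20 numbered 6 with an offset of 1, 7 without scaling and 9 to 13 with single arrays left out; for GH3.3 they numbered 3 without scaling and 9 to 10 with single arrays left out. Without scaling 165 probe sets were called at 1 h (80% higher, against 56.3% of 1124), 1997 at 18 h (75.8% higher, against 41% of 7828), 639 for the difference of these changes (87.5% higher, against 49.5% of 4265) and 4 for the pif3 mean (25% higher, against 63.3% of 406). The 25S covariate gave 620, 2172 and 251 for 1 h, the difference and pif3. Compared groups alone gave 728 at 1 h and 229 for pif3, which had 116 without the 3 low 25S arrays and 179 to 559 with single arrays left out.

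In the red light and pif3 comparisons same-numbered replicates (r of -0.26 to 0.30 in their deviations) were not paired. With the replicate number as a block the changes were the same, with adjusted p of 0.0027 (IAA20) and 0.021 (GH3.3) at 1 h, 3.5e-09 and 7.7e-06 at 18 h and 0.069 and 0.41 for the pif3 mean, and no call of IAA20 or GH3.3 changed. Another probe set could not be tried, since each gene has 1. With IAA20 near 0 in WT_R18, the offset sets the size of its 18 h change.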

Other observations

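Over the 7 groups together, arrays with more GH3.3 signal than their group mean tended to have less IAA20 signal. The deviations of the log2 values from their group means correlated at r = -0.82 between IAA20 and GH3.3 (Spearman rho = -0.69) over 21 arrays. In 5 of 7 groups the array with the most GH3.3 was the one with the least IAA20. In WT_D0, WT_D18, WT_R1 and WT_R18 that array was replicate 2, and in pif3_D0 it was replicate 1. On 14 of 21 arrays the genes deviated in opposite directions. Such counts were not made for other pairs of genes. In WT_D1 both genes deviated in the same direction on every array. In the pif3 arrays the IAA20 deviations ran only from -0.03 to 0.03. Without the WT_R18 arrays r was -0.77 over 18 arrays, and with an offset of 64 it was -0.81. Without replicate 2 of WT_R1 and of WT_D18 it was -0.77 over 19 arrays. Without scaling between arrays the sign turned, to r = 0.34. Of 5712 genes, 4 had a lower r with IAA20 than GH3.3 had. The first axis of within-group variation, with 27.8% of that variance, correlated at -0.61 with the IAA20 deviations and at 0.69 with those of GH3.3. On that axis replicate 2 had 0.37 in WT_D0, 0.31 in WT_D18 and 0.53 in WT_R1, where replicates 1 and 3 lay below 0. Replicate 2 had 0.047 in WT_D1, -0.12 in WT_R18, -0.038 in pif3_D0 and -0.044 in pif3_D1. These values are a description of arrays that share groups and normalization. The part of array scale or of replicate number in them was not tested.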
